A study of Mus musculus with 2 samples.

Results

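S1pr1/Ccr7/Cd200 cells were 553 of the 4351 thymic γδ T cells kept, 12.7% (exact binomial 95% interval 11.7 to 13.7), among 13199 cell barcodes in the 2 libraries of the series. They were picked by unique molecular identifiers (UMIs, each marking 1 captured transcript) and not by clustering. Each cell carried at least 2 UMIs of S1pr1, Ccr7 and Cd200 together, at most 2 of Sox13, Maf and Blk, at most 1 of Dntt, Cpa3, Tox2 and Etv5, at most 5 of Ccl5, Il2rb, Nkg7 and Klrb1c, and at most 4 of 10 cell cycle genes. The levels of these 24 genes are therefore part of the definition and are given as a description, with no test. Droplet 3′ single-cell RNA-seq had been run on 1 library of thymic and 1 of hepatic γδ T cells, sorted as CD3e+ TCRγδ+ from untreated wild type C57BL/6J mice, 8 weeks old. The study asked how γδ T cells develop in the thymus and whether the liver holds precursors. Animals were pooled, and CD4 and CD8 cells had been depleted from the thymic suspension before sorting.

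γδ T cells arise from double-negative thymocytes, pass a CD24-high immature stage and then lose CD24 as they mature. Mature thymocytes leave along a gradient of sphingosine-1-phosphate, which they sense through the receptor encoded by S1pr1, and the transcription factor KLF2 drives S1pr1. CCR7 guides lymphocytes towards CCL19 and CCL21 in the thymic medulla and in lymph nodes, and CD200 is a surface glycoprotein that restrains myeloid cells through its receptor.

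S1pr1 gave most of the UMIs that placed cells in the set. Of the 1771 UMIs of the 3 genes in these cells, 1041 (58.8%) were S1pr1, 527 (29.8%) Ccr7 and 203 (11.5%) Cd200. A Cd200 UMI was seen in only 126 of the 553 cells (22.8%, 19.4 to 26.5), against 475 (85.9%, 82.7 to 88.7) with S1pr1 and 285 (51.5%, 47.3 to 55.8) with Ccr7. A name built from all 3 genes thus fitted few single cells, and it is used here only for the rule: 196 held UMIs of S1pr1 alone, 194 of S1pr1 and Ccr7, 55 of S1pr1 and Cd200, 37 of Ccr7 alone, 24 of Ccr7 and Cd200, 17 of Cd200 alone, and 30 held all 3. Most cells stood close to the threshold, since 235 had 2 such UMIs, 155 had 3 and 163 had 4 or more, with a maximum of 11.

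The other kept thymic cells were divided by the clause that left them out. They comprised 802 Dntt/Cpa3/Tox2/Etv5 cells, 1234 Sox13/Maf/Blk cells, 351 type-1 cells (Ccl5, Il2rb, Nkg7, Klrb1c) and 211 cycling cells. The last class, 1200 low S1pr1/Ccr7/Cd200 cells, met every clause except the first. The median depth was 3054 UMIs (range 1572 to 10720) and 1286 genes in S1pr1/Ccr7/Cd200 cells, 2665 UMIs in the low class and 3310 in all 3798 other kept cells. Cells with more UMIs reach the threshold more easily. When every cell was first thinned to 1500 UMIs, the rule found 332 cells. Levels below are UMIs summed over the cells of a group and expressed per 1000000 UMIs of that group (CPM), with exact Poisson 95% intervals in parentheses. With 1 library per tissue no test between cells was possible, and all intervals cover counting error only. The 2 libraries shared 60 barcodes, 8 of them those of S1pr1/Ccr7/Cd200 cells.

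The summed level of Cd3d, Cd3e, Cd3g and Cd247 was 3432 CPM (3349 to 3517) in S1pr1/Ccr7/Cd200 cells and 3365 (3336 to 3394) in the other kept cells. Of the markers that were not part of the rule, Smc4, a condensin subunit, was at 547 CPM (514 to 581) against 276 (267 to 284), and Tsc22d1, a transcriptional regulator induced by TGF-β, at 250.3 (228 to 274) against 104 (98.6 to 109). Tcf7, the T lineage factor TCF1, did not mark the cells, at 520 (488 to 554) against 499 (488 to 510). Genes of other cell types were low. B cell genes (5 of 5 detected) summed to 44.0 CPM (34.96 to 54.6) against 27.6 (25.1 to 30.4), myeloid genes (3 of 5, Lyz2 and Csf1r at 0) to 199.9 (180.2 to 221) against 206 (199 to 213), and hemoglobin and other erythroid genes (5 of 5) to 44.5 (35.4 to 55.2) against 98.8 (93.8 to 104), or 42.9 (39.7 to 46.3) without the 1 cell that held 849 of the 1501 UMIs. Genes of CD4 CD8 thymocytes (4 of 5, Rag1 at 0) stood at 45.0 CPM (35.9 to 55.7) against 11.3 (9.69 to 13.1), mostly as Cd8b1, which was at 30.6 (23.1 to 39.6). NK and ILC genes other than Klrb1c (2 of 3, Ncr1 at 0) were at 15.5 (10.4 to 22.3) against 66.7 (62.7 to 71.0), and thymic stroma genes (2 of 4, Foxn1 and Pdgfra at 0) at 13.4 (8.67 to 19.8) against 21.4 (19.2 to 23.9). The part of these genes in the differences below was not tested.

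The start regions of Cd200 and of the egress and homing genes that were higher in these cells (Klf2, Itgb7 and Emp3, below) are shown because KLF2 belongs to a family of factors that bind CACCC-type boxes. The 250 bases before the transcription start are given 5′ to 3′ on the strand of the gene, from RefSeq on GRCm38.p6 (mm10). CACCC and its reverse complement GGGTG, searched on both strands, are in capitals. The first start site is shown for Emp3, and S1pr1 and Ccr7 were looked up too.
Cd200, chr16:45409054-45409303, minus strand: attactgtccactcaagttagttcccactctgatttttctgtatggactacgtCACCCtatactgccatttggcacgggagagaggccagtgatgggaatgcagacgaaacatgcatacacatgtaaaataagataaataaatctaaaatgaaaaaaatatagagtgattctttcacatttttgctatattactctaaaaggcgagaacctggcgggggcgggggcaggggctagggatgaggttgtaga
Klf2, chr8:72318812-72319061, plus strand: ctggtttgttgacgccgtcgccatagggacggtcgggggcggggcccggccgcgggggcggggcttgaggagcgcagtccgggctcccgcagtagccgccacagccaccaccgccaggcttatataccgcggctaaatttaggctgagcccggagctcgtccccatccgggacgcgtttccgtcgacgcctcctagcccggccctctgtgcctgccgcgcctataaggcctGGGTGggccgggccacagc
Itgb7, chr15:102231936-102232185, minus strand: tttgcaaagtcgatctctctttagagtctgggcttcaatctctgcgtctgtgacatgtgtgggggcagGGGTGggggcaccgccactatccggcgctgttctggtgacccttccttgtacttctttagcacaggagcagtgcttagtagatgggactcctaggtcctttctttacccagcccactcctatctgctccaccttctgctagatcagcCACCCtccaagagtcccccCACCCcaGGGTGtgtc
Emp3, chr7:45921427-45921676, minus strand: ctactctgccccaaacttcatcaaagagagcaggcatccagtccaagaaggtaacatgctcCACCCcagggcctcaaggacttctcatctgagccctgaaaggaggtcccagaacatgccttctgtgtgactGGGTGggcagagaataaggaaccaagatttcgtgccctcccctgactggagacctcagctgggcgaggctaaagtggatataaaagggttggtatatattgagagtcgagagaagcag
Cd200 and Klf2 each held 1 match, this start site of Emp3 2 matches and Itgb7 4 matches, 3 of them near the start. A match was present in 52.0% of the 32851 start regions of this length, and 1.92% held 4 or more, so a single match is common and describes only the letters of the window.

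Against all other kept thymic cells, S1pr1/Ccr7/Cd200 cells showed higher Klf2, Ifi27l2a, Cd2 and Smc4 and lower Gzma, Hes1 and Cd24a. Ratios of at least 1.5 on the log2(CPM + 10) scale were counted over the 1369 genes that reached 100 CPM on at least 1 side. Of these, 45 genes (3.29%) were higher and 44 (3.21%) lower in S1pr1/Ccr7/Cd200 cells, and the median log2 ratio over all genes was 0.01. Since the cells were chosen on related transcripts of the same library, these counts are a description. In every comparison a gene can also pass the 100 CPM filter through the side where it is higher alone. Ifi27l2a and Cd2 did so here through S1pr1/Ccr7/Cd200 cells, and Pcna through the others. The largest ratio belonged to Ifi27l2a, an interferon-inducible gene, at 302 CPM (278 to 328) against 91.5 (86.8 to 96.5), 3.30-fold (2.99 to 3.65). Samhd1, which degrades deoxynucleotides, was 2.83-fold higher (2.51 to 3.17), and Ms4a4b, a membrane protein of T cells, 2.61-fold higher (2.40 to 2.84). Cd2, an adhesion receptor, was at 204 CPM (184 to 225) against 87.4 (82.7 to 92.2). Rasgrp2, an activator of the GTPase Rap1 that switches on integrins, was at 379 (351 to 408) against 193 (186 to 200.3). Shisa5, Bin2, Gramd3 and Ctss (cathepsin S) completed the leading genes, between 1.95-fold and 2.39-fold higher.

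Gzma, the protease granzyme A, was at 896 CPM (854 to 940.2) in S1pr1/Ccr7/Cd200 cells and at 3041 (3013 to 3069) in the others, the largest difference downwards. Hes1, a target of Notch signalling, was at 151 (134 to 169) against 526 (515 to 538), a ratio of 0.286 (0.253 to 0.322). Cd24a, which encodes the surface marker of immature γδ T cells, was at 263 (240.4 to 288) against 539 (527 to 551). Rasgrp1, which couples the T cell receptor to Ras, was lower, at 147 (130.0 to 165) against 314 (305 to 323), so that the Rasgrp1 and Rasgrp2 transcripts differed in opposite directions. Crip1, a LIM-domain protein, was at 1844 (1783 to 1907) against 3927 (3896 to 3959). Hist1h2ap, a histone gene with near-identical copies among which reads may be split, and Tuba1b, a tubulin gene, were at ratios of 0.300 (0.264 to 0.340) and 0.390 (0.343 to 0.442). Endou, Sdf2l1, Tmem121, Exoc4 and Slc35d1 lay between ratios of 0.316 and 0.463.

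**Figure D1:**
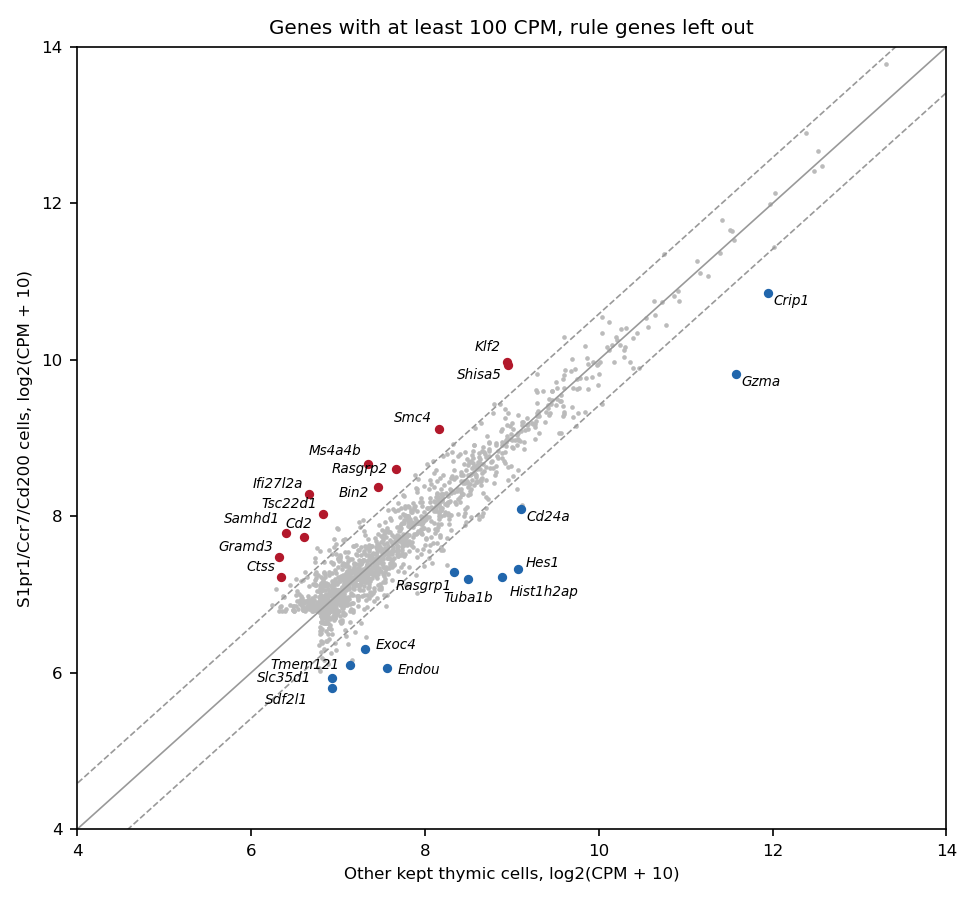
Each point is 1 of 1369 genes, with its level in the other kept thymic cells on the x axis and in S1pr1/Ccr7/Cd200 cells on the y axis, both as log2(CPM + 10). The solid line marks equal levels and the dashed lines 1.5-fold; red and blue points are the 12 genes with the largest ratios in each direction, with Ifi27l2a, Klf2 and Ms4a4b above the line and Gzma, Hes1 and Crip1 below it.

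Of 11 tested genes of egress and homing, 3 were higher and 0 lower. Klf2 was at 996 CPM (951 to 1042) against 483 (472 to 495), 2.06-fold (1.96 to 2.17). Itgb7, the β7 integrin chain, was at 198 (179 to 220) against 114 (109 to 120), and Emp3, a small membrane protein, at 223 (202 to 246) against 142 (136 to 148). The list leaned upwards by a small amount, with 9 of 11 genes above 0 and a median log2 ratio of 0.16. Ccr9, the receptor for the thymic chemokine CCL25, was lower within the limit, at 607 (572.5 to 644) against 823 (809 to 838). Cd69, whose product holds S1PR1 inside the cell, was at 234 (213 to 257) against 222 (214 to 229.5).

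Surface markers of γδ maturation were split, with 2 of 7 tested genes higher (Cd2 and the costimulatory receptor Cd28) and 1 lower (Cd24a). Cd28 was at 684 CPM (647 to 723) against 435 (424 to 445). Nt5e, which encodes CD73 and together with CD24 defined the precursor gate of the study, was too low to be tested, at 20.9 (14.9 to 28.6) against 7.76 (6.43 to 9.30).

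Among 7 tested cytokine receptor genes 3 were higher and 0 lower, with a list median of 0.26 on the log2 scale. All 3 reached 100 CPM only in S1pr1/Ccr7/Cd200 cells, so this count and the median are a description. Il7r, the receptor for the survival cytokine IL-7, was at 124 CPM (108 to 141) against 68.4 (64.3 to 72.6), Il21r at 184 (165 to 204) against 97.9 (93.0 to 103) and Tgfbr2, a TGF-β receptor chain, at 135 (119 to 153) against 86.6 (82.0 to 91.4). Of 16 T lineage and stemness factors, Foxp1 and Id2 were higher and Gata3 lower, and the median was 0.07. Foxp1, a factor of T cell quiescence, was at 475 (444 to 507) against 310.4 (302 to 319), and Gata3 at 179 (160.3 to 199) against 287 (278 to 295). Id2, an inhibitor of E proteins, was at 199.9 (180.2 to 221) against 125 (119.5 to 131). Of 9 genes that respond to T cell receptor signals only Id3 passed, at 218 (197.5 to 240.4) against 118 (113 to 124), while Nr4a1 was at 311 (287 to 338) against 357 (348 to 367) and the list median at -0.12.

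The T cell receptor complex and its proximal kinases (13 tested) held 1 gene higher, the phosphatase gene Ptpn22, and 1 lower, Rasgrp1, around a median of 0.10. Immune GTPases and antigen presentation genes leaned one way without many passing 1.5-fold. GIMAP genes had a median log2 ratio of 0.51, 4 of 5 above 0 and Gimap4 past the limit, at 146 CPM (129.5 to 165) against 88.5 (83.8 to 93.4). MHC class I genes had a median of 0.35, with 9 of 10 above 0 and 0 past the limit in either direction. B2m, the shared light chain, was at 3516 (3432 to 3602) against 2728 (2702 to 2754). Interferon-induced genes were 2 of 4 higher, Ifi27l2a and Ifi203, the second at 180.1 (161 to 200.4) against 109 (104 to 114). Of 5 survival genes 0 passed in either direction, and among 10 genes of the immediate-early and heat shock response 1 was higher, the antiproliferative Btg1.

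The rule caps cell cycle and type-1 genes in S1pr1/Ccr7/Cd200 cells but not in the others, so the levels of related genes are not independent of the rule. Of 13 tested cell cycle genes outside the rule, 6 were lower, among them Stmn1, at 274 CPM (251 to 299) against 545 (533 to 557), and Pcna, at 59.0 (48.5 to 71.1) against 108 (103 to 114). Smc4 was the single one higher. Against the low class, which has the same cap, 1 of 11 was higher (Smc4), 0 were lower and the median log2 ratio was 0.0083. When cycling cells were left out of the comparison, 31 genes were higher and 39 lower in S1pr1/Ccr7/Cd200 cells. Of 3 tested genes of interleukin-17-producing γδ T cells Cd163l1 was lower, at 56.8 (46.5 to 68.7) against 100.4 (95.4 to 106). The type-1 and cytotoxic list gave 1 gene higher, Ctsw, and 1 lower, Gzma. Ctsw, cathepsin W, was at 198 (178 to 219) against 123 (117 to 129). Of the early thymocyte and Notch genes, 2 were tested and Hes1 alone passed.

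Set against the low S1pr1/Ccr7/Cd200 class alone, which shares every other clause of the rule, fewer genes differed. Of 1357 genes, 19 (1.4%) were higher and 33 (2.43%) lower in S1pr1/Ccr7/Cd200 cells. Cytokine receptors (7 tested) and T lineage factors (17 tested) had 0 past the limit in either direction. Klf2 alone passed among 11 egress and homing genes. Il7r, Il21r, Tgfbr2, Foxp1, Id2, Gata3, Cd28, Itgb7 and Emp3 thus did not pass against this class. Ifi27l2a (2.41-fold, 2.12 to 2.73), Ms4a4b (2.02-fold, 1.82 to 2.25), Cd2 (2.06-fold, 1.78 to 2.39), Tsc22d1 (2.00-fold, 1.75 to 2.28), Smc4 (1.95-fold, 1.78 to 2.13), Bin2 (1.85-fold, 1.65 to 2.07) and Klf2 (1.77-fold, 1.66 to 1.89) were again among the leading genes, joined by Id3 (2.02-fold, 1.76 to 2.33). Hes1 was at a ratio of 0.325 (0.285 to 0.369) and Cd24a at 0.481 (0.435 to 0.531). Tnfsf11, which encodes the cytokine RANKL, was at 157 CPM (139 to 176) against 314 (296 to 333), and Ly6a, which encodes Sca-1, at 32.2 (24.5 to 41.4) against 107 (96.5 to 118). Immediate-early genes Fos and Jun were lower too, Fos at 228 (207 to 250.5) against 433 (411 to 455). Hbb-bs, a hemoglobin gene, had the lowest ratio, but 395 of its 482 UMIs in the low class lay in 1 cell, and without that cell it was at 24.3 CPM (19.5 to 29.99) against 21.4 in S1pr1/Ccr7/Cd200 cells. The same cell held 849 of the 1019 erythroid UMIs of the low class.

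Along all 6 classes, S1pr1/Ccr7/Cd200 cells had the highest levels of several egress, T lineage and signalling genes. Of 201 genes of the lists that reached 50 CPM in some class, 47 were highest in S1pr1/Ccr7/Cd200 cells, 61 in type-1 cells, 34 in cycling, 30 in Sox13/Maf/Blk, 22 in low S1pr1/Ccr7/Cd200 and 7 in Dntt/Cpa3/Tox2/Etv5 cells. These counts describe the chosen lists, since the share over all genes was not counted. Some of the maxima were narrow, such as Ccnd3 at 140 CPM against 115 in its lowest class. Klf2 was at 462 CPM (439 to 486) in Dntt/Cpa3/Tox2/Etv5 cells, 420.2 (403 to 438) in Sox13/Maf/Blk cells and 563 (538 to 588) in the low class, then at 996 in S1pr1/Ccr7/Cd200 cells, above the 771 (726 to 819) of type-1 cells and the 332 (307 to 358) of cycling cells. The interval of S1pr1/Ccr7/Cd200 cells did not overlap that of any other class. Klf2 is not independent of the rule, which admits cells largely by S1pr1, so this is a description. Ikzf2, which encodes Helios, peaked at 889 (847 to 933), above 688 (661 to 716) in the low class and 684 (641 to 728) in type-1 cells. Foxp1 was at 475 (444 to 507) and at most 353 (333 to 373) elsewhere, and Id3 at 218 (197.5 to 240.4) and at most 142 (129.5 to 156) elsewhere.

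Other genes were shared with the type-1 class. Ifi27l2a was at 302 CPM (278 to 328) in S1pr1/Ccr7/Cd200 cells and 343 (313 to 375) in type-1 cells, with overlapping intervals, against 27.9 to 126 in the other 4 classes. Hes1 was at 151 (134 to 169) and 156 (136 to 178) in the same pair and between 304 and 724 elsewhere. Cd24a was at 263 (240.4 to 288) and 252 (226 to 279), while the other 4 classes lay between 470.1 and 602. Gzma was lowest in type-1 cells at 696 (653.5 to 742), followed by S1pr1/Ccr7/Cd200 cells at 896, and reached 4678 (4619 to 4738) in Sox13/Maf/Blk cells. Lck, the kinase that starts T cell receptor signalling, was highest in S1pr1/Ccr7/Cd200 cells at 547 (514 to 582), with type-1 cells at 479 (443 to 517) and overlapping intervals. B2m, Gimap4, Il7r, Id2 and Ctsw, described above as higher than in the other kept cells, were highest in type-1 cells. There they were at 4226, 200, 127, 270 and 348 CPM. H2-D1 and H2-K1 were also highest in type-1 cells, whereas H2-T23, Tapbp, Itgb7, Emp3, Il21r and Tgfbr2 were highest in S1pr1/Ccr7/Cd200 cells. Genes lowest in S1pr1/Ccr7/Cd200 cells numbered 12 and included Hes1, Runx1 and the replication genes Mcm2, Mcm7, Pcna and Tyms.

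**Figure D2:**
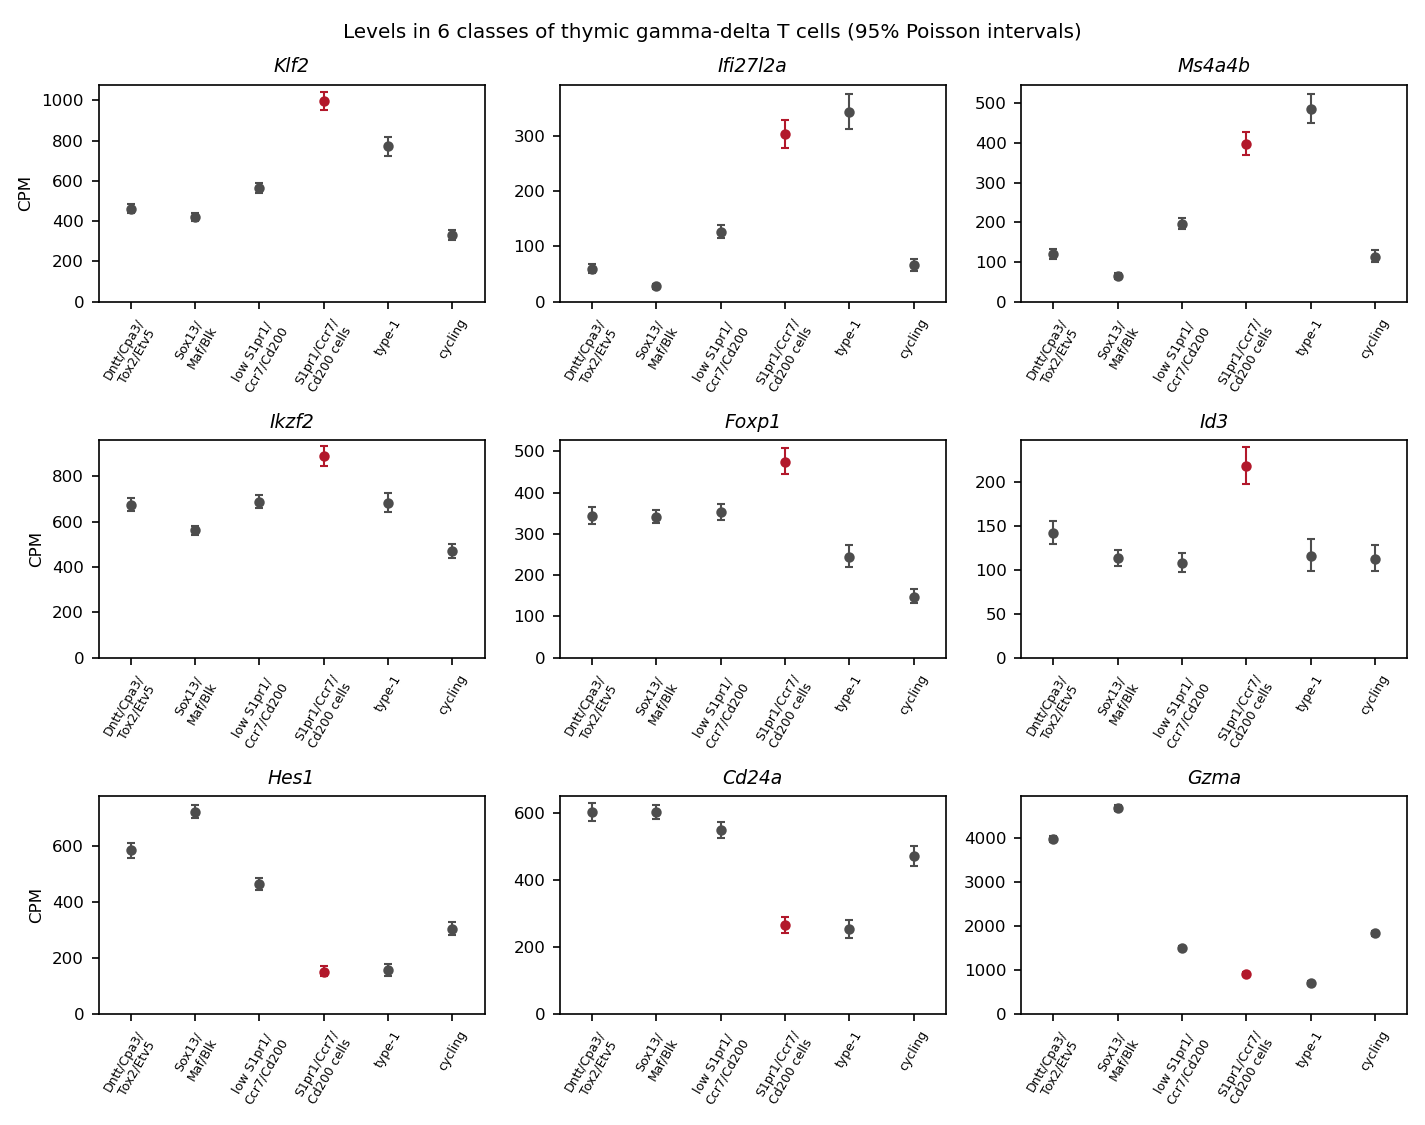
Levels in CPM (y axes, from 0) of 9 genes in the 6 classes of thymic cells (x axes), with S1pr1/Ccr7/Cd200 cells in red and 95% Poisson intervals as bars. Klf2, Ikzf2, Foxp1 and Id3 are highest in the red class, whereas Ifi27l2a, Ms4a4b, Hes1, Cd24a and Gzma in it lie nearer to type-1 cells than to the 3 classes on its left.

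No step common to all genes was seen at the threshold of 2 UMIs. Among cells meeting the other clauses, 795 had no UMI of the 3 genes and 405 had 1, with median depths of 2609 and 2800 UMIs, while cells with 2, 3 and 4 or more had 2980, 3032 and 3346. Just outside the limit, with 1 UMI, Klf2 was at 711 CPM (665 to 758), and just inside it, with 2, at 857 (793 to 925). From 0 to 4 or more UMIs, Klf2 went from 479 (451 to 508) to 1134 (1049 to 1224), and Smc4 from 211 (193 to 231) to 627 (564 to 695). Ifi27l2a was at 179 (156 to 203) with 1 UMI and 183 (154 to 216) with 2, and then at 303 (258 to 355) and 460.5 (407 to 519) with 3 and with 4 or more. Thus the level hardly differed across the limit and differed more within the set.

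Hes1, Cd24a and Gzma took the reverse course. Hes1 was at 553 CPM (522.5 to 584), 307 (278 to 339), 252 (218 to 290), 96.6 (71.7 to 127) and 64.1 (45.1 to 88.3) at 0, 1, 2, 3 and 4 or more UMIs. Cd24a was at 602 (571 to 635), 451 (415 to 489) and 304 (266 to 345) for the first 3 steps, then at 228 (189 to 273) and 241 (202 to 284). Gzma stayed near 1434 (1370 to 1501) with 1 UMI and 1436 (1352 to 1523) with 2, and was at 529 (469 to 596) with 3. Cells with exactly 2 UMIs therefore resembled those left out with 1 UMI in Gzma and Ifi27l2a. Id3 was at 71.7 (61.15 to 83.6), 172 (149.8 to 196) and 238 (204 to 275) at 0, 1 and 2 UMIs and at 225 (188 to 267) with 4 or more. Tcf7 differed less, from 424 (398 to 452) to 538 (480.2 to 602). The genes shown here were picked after their values were seen.

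**Figure D3:**
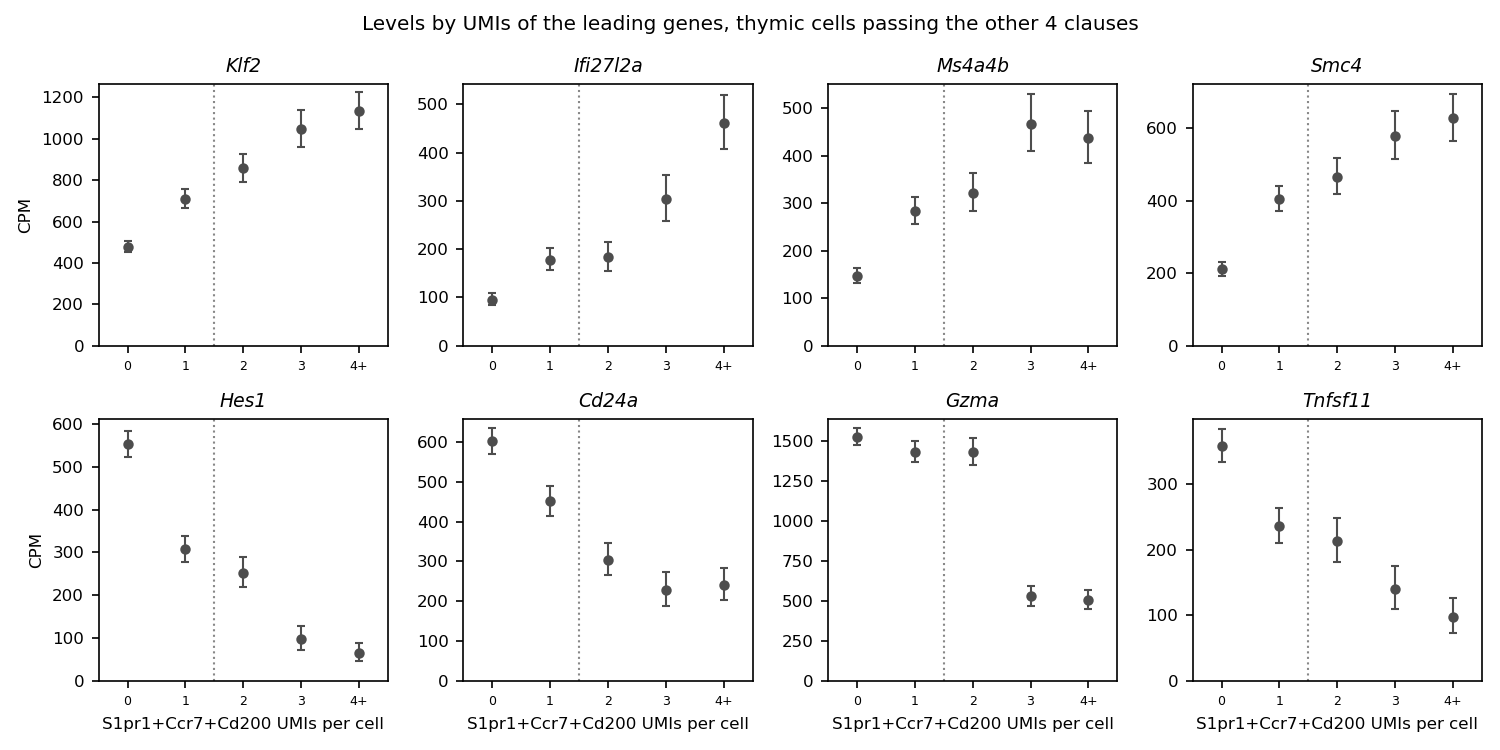
Levels in CPM (y axes, from 0) of 8 genes by the number of S1pr1, Ccr7 and Cd200 UMIs in a cell (x axes) among thymic cells meeting the other 4 clauses; the dotted line is the threshold and bars are 95% Poisson intervals. Klf2, Ifi27l2a, Ms4a4b and Smc4 are higher and Hes1, Cd24a, Gzma and Tnfsf11 lower towards the right, with no step at the dotted line common to all.

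S1pr1/Ccr7/Cd200 cells lay near each other also by genes outside the rule. With the 24 rule genes removed, 38.3% of the 30 nearest neighbours of such a cell were S1pr1/Ccr7/Cd200 cells (quartiles over cells 20% to 56.7%), where they made up 12.7% of kept cells. A further 29.8% of neighbours were low S1pr1/Ccr7/Cd200 cells, 12.5% Dntt/Cpa3/Tox2/Etv5, 10.8% Sox13/Maf/Blk, 7.74% type-1 and 0.952% cycling cells. Most neighbours were thus from other classes. Each other class was also its own neighbour more often than its share of kept cells. For type-1 cells this was 47.5% against 8.07%, and for cycling cells 63.0% against 4.85%. Since the clauses also set apart cells rich in related genes, these shares are a description. Among the neighbours of S1pr1/Ccr7/Cd200 cells the low class was the most frequent other class, but its share was near the 27.6% it made up of kept cells. The share of type-1 cells was likewise near their 8.07% of kept cells. Seen from the other side, S1pr1/Ccr7/Cd200 cells gave 15.7% of the neighbours of type-1 cells and 15.6% of those of low cells, but 8.50% for Dntt/Cpa3/Tox2/Etv5, 4.39% for Sox13/Maf/Blk and 4.08% for cycling cells. Sox13/Maf/Blk cells made up 28.4% of kept cells and were the class most depleted among the neighbours of S1pr1/Ccr7/Cd200 cells after the cycling cells.

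**Figure D4:**
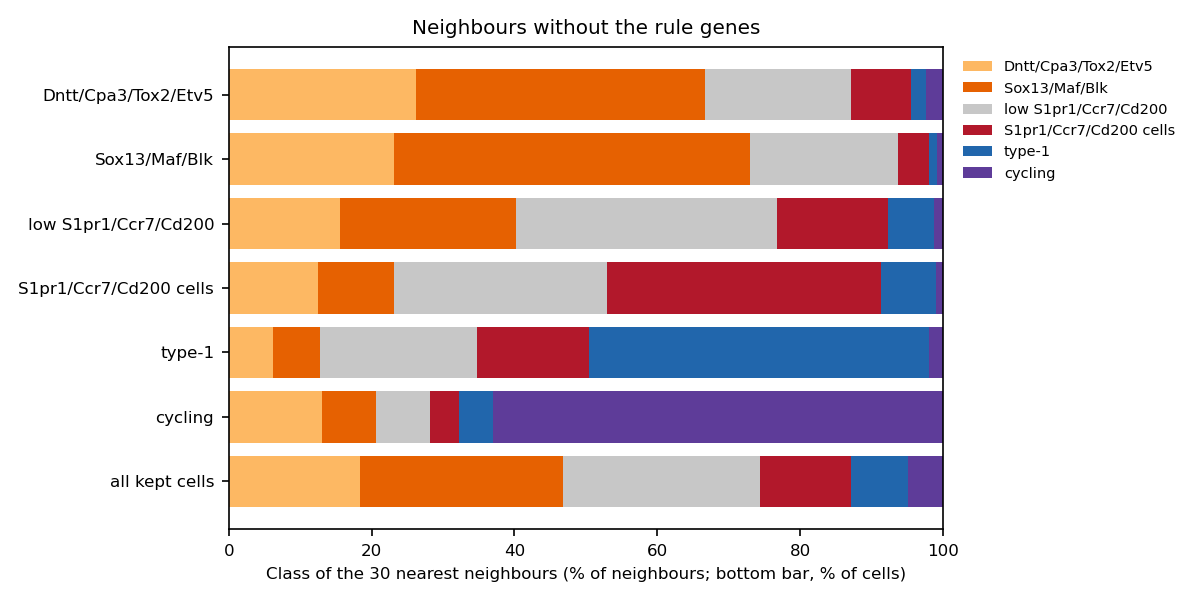
Each bar shows the classes of the 30 nearest neighbours of the cells of 1 class, as a percentage of neighbours (x axis), with the rule genes left out; the bottom bar gives the make-up of all kept cells. The red segment, S1pr1/Ccr7/Cd200 cells, is 38.3% in its own bar and 12.7% in the bottom bar.

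The cells differed among themselves by Cd200. Only 17 cells carried Cd200 without S1pr1 or Ccr7 UMIs, against 427 with S1pr1 or Ccr7 and no Cd200, and 109 had both. Cells without Cd200 had to reach the threshold by S1pr1 or Ccr7. Divisions by Cd200 therefore also divide by these rule genes and are a description. Between the 427 and the 17 cells, 248 of 1608 genes (15.4%) were higher and 333 (20.7%) lower, shares that rest on 55038 UMIs in the 17 cells. They also depend on the 100 CPM filter, which a gene can pass through the 17 cells alone. Without it 871 genes were higher and 507 lower. Spry2, an inhibitor of receptor tyrosine kinase signalling, was at 107 CPM (90.4 to 126) in the 427 cells and 581 (398 to 821) in the 17, and Pik3r1, a regulatory PI3-kinase subunit, at 103 (87.1 to 122) and 418 (265 to 627). Smpdl3a had 161 UMIs in the 427 cells and none in the 17, where up to 67.0 CPM would be allowed, but its log2 ratio was -0.092 in the division by any Cd200 UMI given next. Rgs1, Gimap4, Eva1b, Tbc1d10c, Crlf3 and Ldlrad4 each rested on 1 UMI in the 17 cells, so their ratios had wide intervals, for Gimap4 8.71-fold (1.55 to 346) higher in the 427. Zc3hav1, with 2 UMIs, was 5.45-fold higher (1.49 to 45.2), whereas Ap3b1, Rsu1, Adora2a, Gbas, Umps and Nrgn were at ratios of 0.162 to 0.262. In the 427 cells Ap3b1, Adora2a and Gbas were at 38.3, 39.0 and 31.8 CPM. These genes, like Rsu1, Umps and Nrgn, passed the filter only through the 17 cells, where they were higher. The ratios of all of them are therefore a description.

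A division with more cells set the 427 without a Cd200 UMI (median 2945 UMIs) against all 126 with one (median 3568 UMIs). Here 48 of 1380 genes (3.48%) were higher without Cd200 and 36 (2.61%) lower. Nrgn, Tnfrsf9 and Pdcd1 were higher in cells with Cd200 and reached 100 CPM only there, so their ratios are a description. The same holds for Fli1 and Rgs1, below, in cells without Cd200. Nrgn, a calmodulin-binding protein, was at 258 CPM (214 to 307) with Cd200 and 47.7 (36.9 to 60.7) without, Tnfrsf9, the costimulatory receptor 4-1BB, at 143 (112 to 181) and 49.1 (38.2 to 62.3), and Pdcd1, the inhibitory receptor PD-1, at 114 (86.1 to 149) and 54.2 (42.6 to 67.9). Izumo1r, Spry2, Lrmp and Id2 followed, with Id2 at 316 (268 to 370.1) and 159.7 (139 to 182). Cd74, the invariant chain of MHC class II, was at 156 (123 to 195) with Cd200 against 65.0 (52.3 to 79.9), but 64 of the 75 UMIs with Cd200 and 50 of the 90 without lay in 1 cell each. Without these cells it was at 22.9 (11.5 to 41.1) and 29.0 (20.7 to 39.5). The list of T cell receptor response genes itself had 0 of 9 past the limit in either direction.

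Cells without Cd200 had higher Thy1, at 710.1 CPM (666.4 to 756) against 359 (308 to 417), Rgs1, at 173 (152 to 197) against 72.7 (50.6 to 101), and Fli1, an ETS factor, at 105 (89.1 to 124) against 35.3 (20.6 to 56.5). S100a4, S100a6, Gramd3, Ppp1r18 and 5830411N06Rik were between 1.94-fold and 2.60-fold higher without Cd200. Of 11 egress and homing genes Ccr9 and Selplg were higher without Cd200, Ccr9 at 677 (634 to 722) against 407 (352 to 468), and 0 were lower. By the rule, cells without Cd200 carry at least 2 S1pr1 or Ccr7 UMIs, so this list is not independent of the division. Klf2 was within the limit, at 1056 (1002 to 1111) against 825 (746 to 910.0). Among T lineage factors Foxp1 was at 530.3 (493 to 570.0) against 316 (268 to 370.1) and Bcl11b at 294 (266 to 324) against 183 (147 to 225). Stmn1, Tuba1b, H2afz and Ran, 4 of the 11 tested cell cycle genes, were lower without Cd200, with H2afz at 565 (526 to 606) against 1022 (934 to 1116).

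In the liver the same rule found 104 of 8075 kept cells, 1.29% (1.05 to 1.56), with a median depth of 2326 UMIs. S1pr1 had like levels in both sets, 558 CPM (525 to 593) in thymic and 555 (468.5 to 652.5) in hepatic cells, but Ccr7 was at 282 (259 to 308) against 813 (708 to 930) and Cd200 at 109 (94.4 to 125) against 19.0 (6.17 to 44.4). Tissue and library cannot be told apart here. The hepatic set also held B cell genes at 349.6 CPM (282 to 429) and myeloid genes at 2497 (2310 to 2695), so the comparison was repeated with cells of at most 2 such UMIs, 534 thymic and 94 hepatic. Of 1420 genes, 289 (20.4%) were higher in the thymic cells and 180 (12.7%) lower, around a median log2 ratio of 0.20 over all genes. Without those cells the counts were 284 (19.8%) and 179 (12.5%) of 1436 genes.

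Thymic cells held more of the transcription factors of developing T cells. Of 16 such genes 8 were higher and 1 lower than in hepatic cells: Ikzf2 was at 889 CPM (847 to 933) against 243 (187 to 311), Sox4 at 615 (580 to 651.5) against 277 (217.5 to 349), Tox at 306 (281 to 332) against 106 (70.7 to 154) and Gata3 at 179 (160.3 to 199) against 68.4 (40.5 to 108). Tcf7 and Lef1, in contrast, had overlapping intervals, Tcf7 at 520 (488 to 554) and 487 (406 to 578). Id2 was the gene lower in the thymus, at 199.9 (180.2 to 221) against 768 (665.5 to 881). Hes1, Cd24a and Itm2a were higher in the thymus as well. Hes1 was at 151 (134 to 169) against 30.4 (13.1 to 59.9), Cd24a at 263 (240.4 to 288) against 129 (89.5 to 181), and Itm2a at 110.4 (95.9 to 127) against 22.8 (8.37 to 49.6). Among the genes with the largest ratios, Tnfsf11 rested on 3 hepatic UMIs (13.7-fold, 4.65 to 67.0) and Nrgn on 1 (26.8-fold, 4.75 to 1064). Gzma was 6.21-fold higher (4.502 to 8.80) and Ppp1r16b 4.96-fold (2.93 to 9.13), while Spry2, Kdm5b and Cdk6 rested on 5 or 6 hepatic UMIs.

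Hepatic cells held more Klf2 and immediate-early transcripts. Klf2, which marked S1pr1/Ccr7/Cd200 cells in the thymus, was at 3394 CPM (3175 to 3624) in the hepatic set and 996 (951 to 1042) in the thymic one. Of 12 egress and homing genes 5 were lower in the thymus (Klf2, Klf6, Cd69, Cxcr6 and Emp3), and 1 was higher, Ccr9, at 607 (572.5 to 644) against 201 (151 to 264). Of 15 immediate-early and heat shock genes 14 were lower in the thymus, with a median log2 ratio of -2.11. Jun was at 49.9 (40.2 to 61.1) against 1516 (1371 to 1673), and Hspa1a, which has the near-identical copy Hspa1b, had no UMI in the thymic cells, whose interval reached 1.98 CPM, against 779 (676 to 893) in the liver. Of 11 genes responding to T cell receptor signals 8 were lower, a list that shares Fos, Jun and Junb with the previous one. Nr4a1 was at 311 (287 to 338) against 787 (683 to 902).

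Of 5 tested type-1 and cytotoxic genes, 3 were lower in the thymus (Gzmb, Klrd1 and Ccl4) and 1 was higher, Gzma, at 896 CPM (854 to 940.2) against 144 (102 to 198). Il17a, an effector cytokine gene, was at 5.36 CPM (2.57 to 9.86) in the thymic and 509 (427 to 603) in the hepatic cells, 14 of which held its UMIs, and Gzmb at 2.14 (0.584 to 5.49) and 236 (181 to 302). GIMAP genes were lower in the thymus in 4 of 6 and MHC class I genes in 4 of 11 cases, among them Gimap3 at 69.1 (57.7 to 82.2) against 220.4 (167 to 285) and H2-K1 at 472 (442 to 504.5) against 1304 (1169 to 1449). Il7r was at 124 (108 to 141) against 285 (224 to 357). Cd74, H2-Aa, H2-Eb1 and H2-Ab1, genes of MHC class II presentation, were also much lower in the thymus, with Cd74 at 88.4 (75.5 to 103) against 1820 (1661 to 1991), the latter from 9 cells. Once cells with over 2 B cell or myeloid UMIs were left out, Cd74 and H2-Eb1 had log2 ratios of 0.083 and 0.15, and H2-Aa and H2-Ab1 of -0.68 and -0.31. Cd74 and H2-Aa are among the genes by which those cells were recognised, so the change in Cd74 follows from the filter. Il17a, Gzmb and Klf2 kept their directions, Klf2 at 989.8 (944 to 1037) against 3507 (3269 to 3758). Of the type-1 and cytotoxic list 4 genes were then tested. Gzmb and Ccl4 were lower in the thymus, and Klrd1 was no longer among the genes that passed.

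**Figure D5:**
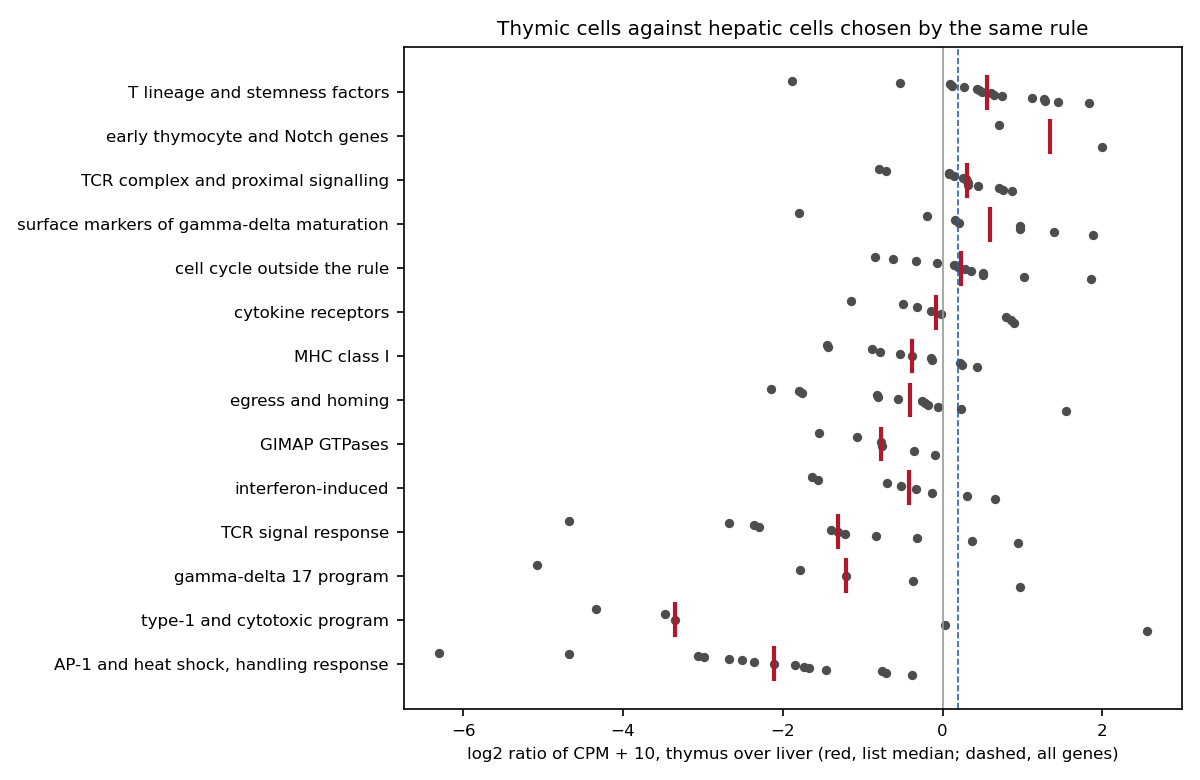
Log2 ratio of CPM + 10, S1pr1/Ccr7/Cd200 cells of the thymus over hepatic cells chosen by the same rule (x axis), for the tested genes of 14 lists (1 point per gene, red bar at the list median, dashed line at the median of all genes, 0.20). Most T lineage factors lie right of 0, and all immediate-early and heat shock genes left of it.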

How the data were processed

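The files held counts of UMIs per gene and barcode that the authors deposited unnormalized, made with Cell Ranger on mm10, with Seurat 3.0 also named, per the submitters' processing notes. Each tissue had 1 library, of 4541 thymic barcodes (17371662 UMIs) and 8658 hepatic barcodes (25040963 UMIs). Barcodes with 800 to 4000 genes and at most 6% mitochondrial UMIs were kept. The 2 stray lines at the end of the thymic matrix were ignored. Scrublet's automatic threshold marked 1 thymic and 4 hepatic cells and was taken not to have worked, so that doublets were kept. Counts were summed per group, and ratios computed as log2 with 10 CPM added, for genes that reached 100 CPM on at least 1 side and 50 UMIs in total; mitochondrial, ribosomal-protein and rule genes were left out. Intervals on ratios are exact conditional binomial ones. Neighbours were found on 20 principal components of 2000 variable genes. Named genes were the 12 largest ratios in each direction against other thymic cells, the 8 largest between the S1pr1/Ccr7 and the Cd200 cells and against hepatic cells, the rule genes and examples from lists, of which 335 of 336 genes were found. In the comparisons added after seeing the data, examples of the leading genes are named. The values of 1 list gene are not reported here. The cells and the lists were chosen with earlier results of these data known. The split by any Cd200 UMI, the low class as sole comparator, the limit on B cell and myeloid UMIs and the values without the cell richest in a gene were chosen after seeing the data. Thinning to 1500 UMIs used the seed 11. No T cell receptor chain genes were used. Scripts (Python 3.11.15, scipy 1.17.1, scanpy 1.11.5) were tested on simulated data.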

Additional observations from a re-analysis of the deposited data

How the results depend on the processing

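No paired analysis was possible because each tissue had 1 library, so no replicate could be left out either. The number of S1pr1/Ccr7/Cd200 cells was 958 with at least 1 UMI of the 3 genes, 318 with at least 3 and 332 after thinning. Against other thymic cells, genes higher and lower numbered 75 and 70 with totals free of mitochondrial and ribosomal-protein genes, 155 and 232 without the 100 CPM filter, 7 and 12 at 2-fold, and 19 higher against the low class alone. Between the S1pr1/Ccr7 and the Cd200 cells they were 96 and 89 with at least 1 UMI, 871 and 507 without the filter, 105 and 113 at 2-fold, 48 and 36 when split by any Cd200 UMI, and 461 higher with the other totals. Against hepatic cells they were 452 and 280 with the other totals, 1117 and 327 without the filter and 89 and 105 at 2-fold. The other totals raise every CPM, so more genes pass the filter. Of the genes named, 3 changed sign: Smpdl3a (log2 ratio -0.092 when split by any Cd200 UMI), and Cd74 (0.083) and H2-Eb1 (0.15) with at most 2 B cell and myeloid UMIs. For the 24 genes named against other thymic cells, 279 of 360 values lay within the counting interval of the main ratio or hardly moved. A further 81 moved more and 0 changed sign. By the same measure 171 of 224 values against hepatic cells and 218 of 240 in the split stayed. The interval was that of the ratio without added CPM. The share of neighbours stayed between 36.6% and 39.1%, and between 36 and 50 list genes were highest in S1pr1/Ccr7/Cd200 cells. The depth limits genes below about 100 CPM and any statement on the 17 cells with Cd200 alone.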
